A study of Homo sapiens with 4 samples.

Results

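The genes described here encode respiratory complexes II, III, IV and V of the mitochondrial inner membrane, together with named assembly factors, isoforms and the inhibitor of complex V. They were chosen by symbol: the SDH genes of complex II and their numbered assembly factors, the UQCR genes and CYC1 of complex III, the numbered COX genes of complex IV, and the ATP5 genes of complex V. This gave 62 of the 18132 genes with a probe set of their own, and each was read from the probe set with the highest mean over the 4 arrays. Complex II had 7 genes, complex III 9, complex IV 27 and complex V 19, and the iron-sulfur subunit of complex II was not analysed here. RNA came from A549, an established human lung adenocarcinoma line. The 4 arrays held 1 sample each: untreated cells, cells given dihydroberberine at 25 μmol/L, cells given sunitinib at 2 μmol/L, and cells given both (the combination), all at 48 h. Dihydroberberine is the hydrogenated derivative of berberine, an alkaloid from plants, and sunitinib inhibits several receptor tyrosine kinases. With 1 array per condition no difference has a replicate check, so none was tested and no p-value is given.

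Complex II oxidises succinate, as a step of the citric acid cycle, and passes the electrons to ubiquinone. Complex III moves them on to cytochrome c, and complex IV uses them to reduce oxygen to water. Complexes III and IV pump protons across the inner membrane, and complex V, the ATP synthase, lets protons flow back through its c ring to drive ATP synthesis in its F1 head. Complex II is encoded entirely in the nucleus, whereas the catalytic core of complex IV is encoded in mitochondrial DNA. Berberine is known to accumulate in mitochondria and to inhibit complex I, the first entry point of electrons.

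Values are log2 probe set signals as deposited, and a difference is 1 array minus another on that scale. A gene counted as measured where at least 1 array reached the median of all gene probe sets, a log2 signal of 6.75, which left 10958 genes and 57 of the 62 respiratory genes. The medians of the 4 arrays lay between 6.73 and 6.76, and their pairwise correlations between 0.986 and 0.994. The dihydroberberine array stood apart in control probe sets, by -0.41 for Alu repeats, -0.63 for 18S and 0.46 for 28S ribosomal RNA relative to the untreated array. The background probe sets of high GC content were higher on each treated array, by 0.45 with dihydroberberine, 0.29 with sunitinib and 0.25 with the combination. The 75th percentile of all gene probe sets was 8.75 in untreated cells and 8.63, 8.68 and 8.72 in the treated samples, and their SD was 2.44 against 2.37, 2.38 and 2.41. The spread of signals was thus narrower on each treated array, the same arrays on which most respiratory genes were lower, and the part of these array differences in the results below was not tested. KRT7, KRT8, KRT18 and KRT19 were above the floor and EPCAM and CDH1 below it on all arrays, while 5 targets of the KEAP1 pathway (NQO1, AKR1B10, AKR1C1, ALDH1A1 and GCLM), which is known to be mutated in A549, were above it. Of 10 markers of other cell types, 3 were above the floor on all arrays (CD68, VWF and HBB) and 6, among them PTPRC, below it on all arrays; the summed log2 signal of the 10 ran from 60.6 in the combination to 65.4 in untreated cells, with CD14 at 8.82 there and 5.76 in the combination, and its part in the results was not tested.

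Most respiratory genes had a lower signal in treated than in untreated cells, by small amounts. With the combination, 8 of the 57 were lower by at least 1.3-fold and 0 were higher, where 16.5 percent of all genes measured were lower and 15.3 percent higher. With dihydroberberine 6 were lower and 2 higher, against 22.4 percent and 12.8 percent of all genes. With sunitinib 3 were lower and 0 higher, against 11.6 percent and 6.63 percent. As shares of the 57, the lower genes made up 14.0 percent with the combination, 10.5 percent with dihydroberberine and 5.26 percent with sunitinib. None of these exceeded the share among all genes, and the shares among genes of similar or higher signal are given in the next paragraph. In its probe set of highest mean none of the 57 passed 2-fold in any comparison. Another probe set of COX3 and of ATP5MC3, above the floor on all arrays, did. So did probe sets under the floor on at least 1 array, of ATP5IF1 (-1.62 with dihydroberberine and -1.86 with the combination) and ATP5MK (1.66 with the combination). Of all genes, 1.5 percent passed that size downward and 1.16 percent upward with the combination. The shares were 3.52 and 1.05 percent with dihydroberberine, and 0.584 and 0.21 percent with sunitinib. The same held for the combination against sunitinib (0.119 percent of all genes lower, 0.721 percent higher) and against dihydroberberine (0.438 and 2.78 percent). The 3 genes lower with sunitinib (SDHA, ATP5MC1 and ATP5F1D) did not pass 1.3-fold after quantile normalization between arrays, at -0.34, -0.31 and -0.30. With dihydroberberine 5 genes were then lower, without SDHAF3 and COX18 and with COX3, and with the combination 7, without ATP5MF (-0.31).

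The sign of the difference was negative for most of the genes. The difference from untreated was negative for 48 of 57 with the combination, 44 with sunitinib and 41 with dihydroberberine, against 52.7, 55.6 and 53 percent of all genes. The median difference was -0.15 with the combination, -0.08 with sunitinib and -0.10 with dihydroberberine, beside -0.02, -0.04 and -0.03 over all genes. Among the 1148 genes whose mean signal was at least the lower quartile of the respiratory genes, a background chosen after the data were seen, the medians were -0.06, -0.08 and -0.05, and 57.6, 64.5 and 58.2 percent were negative. Of these 1148, 13.8 percent were lower and 9.49 percent higher by 1.3-fold with the combination, near the 14.0 percent lower of the respiratory genes. The shares were 7.49 and 2.96 percent with sunitinib, and 15.0 and 6.45 percent with dihydroberberine. These 3 comparisons share the untreated array. After quantile normalization the negative counts were 43, 31 and 36. Of all genes 50.04 percent were then negative with the combination, 46.7 percent with sunitinib and 45.1 percent with dihydroberberine. After the same normalization 17.6 percent of all genes were lower and 17.2 percent higher by 1.3-fold with dihydroberberine, and 8.35 percent lower and 8.63 percent higher with sunitinib. With the combination 14.5 percent were lower and 16.7 percent higher. As deposited, the combination was lower than sunitinib for 40 of 57, where 49.2 percent of all genes were negative, and lower than dihydroberberine for 35, where 50.7 percent were.

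**Figure D1:**
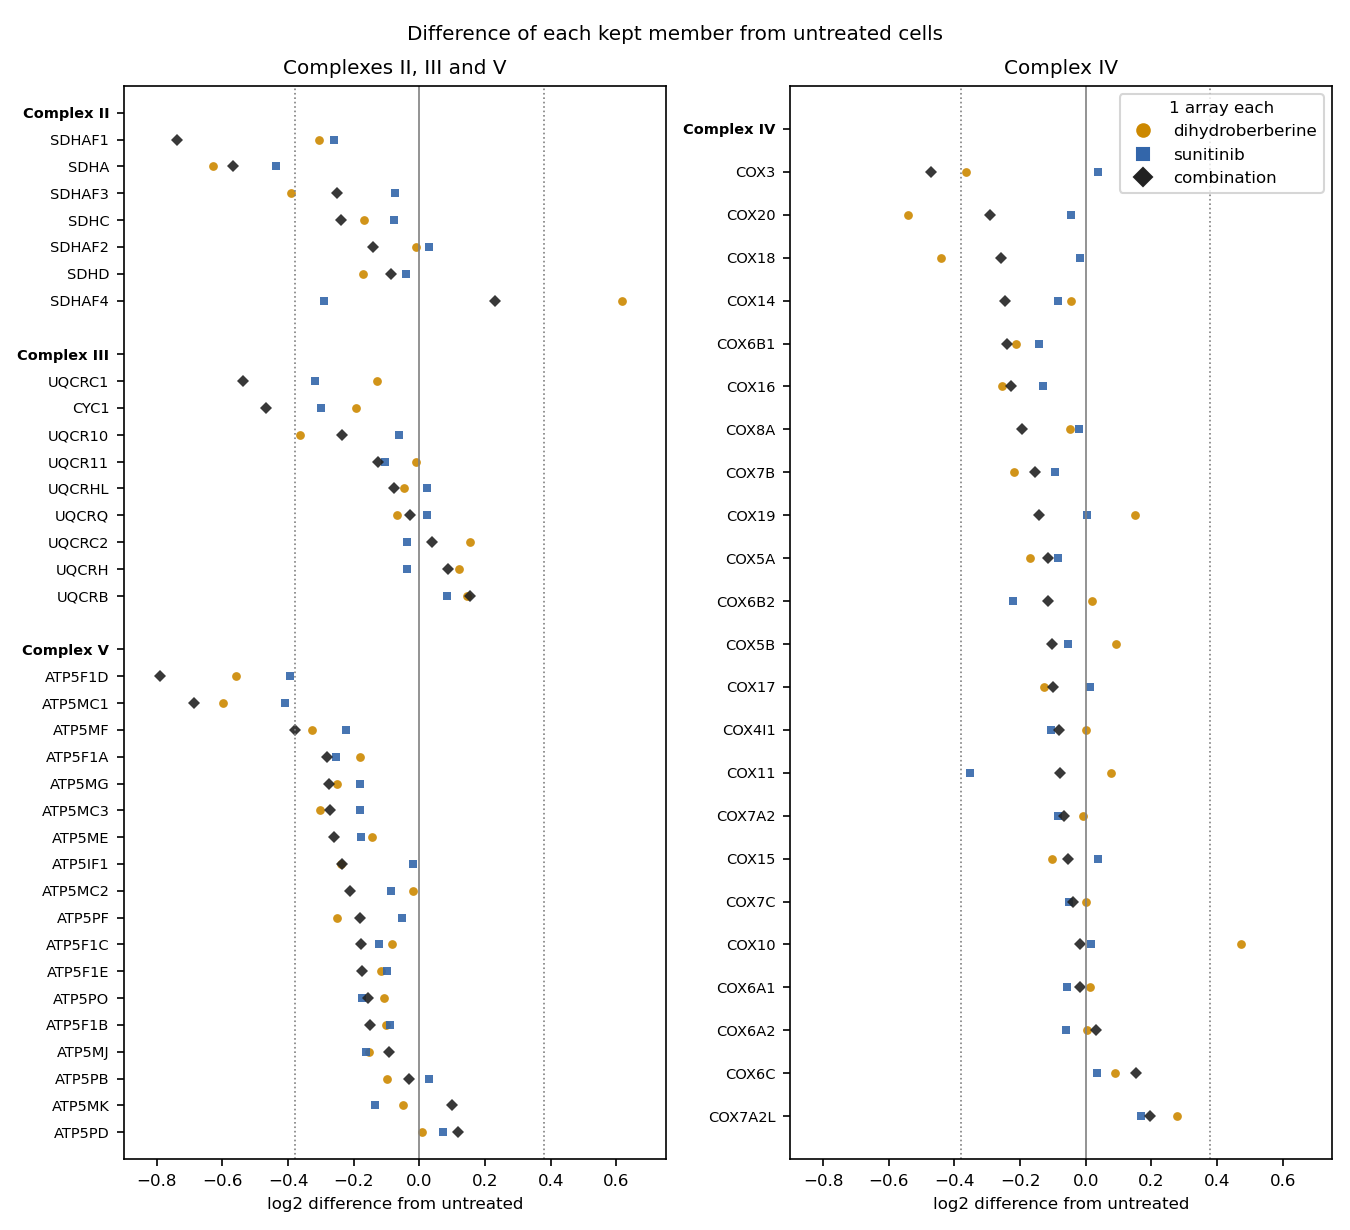
Log2 difference from the untreated array (horizontal axis) of each of the 57 respiratory genes measured, by complex, for dihydroberberine (circles), sunitinib (squares) and the combination (diamonds), 1 array each. The dotted lines mark 1.3-fold, and most points lie left of 0, with SDHAF1, ATP5F1D and ATP5MC1 farthest left in the combination and SDHAF4 and COX10 farthest right with dihydroberberine.

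The 8 genes lower by at least 1.3-fold in the combination were ATP5F1D (1.73-fold), SDHAF1 (1.67-fold), ATP5MC1 (1.61-fold), SDHA (1.48-fold), UQCRC1 (1.45-fold), COX3 (1.39-fold), CYC1 (1.38-fold) and ATP5MF (a log2 difference of -0.38). They include a catalytic subunit or a proton-carrying subunit from complexes II, III and V and a mitochondrially encoded subunit of complex IV. Nuclear respiratory genes are known to share promoter sites for NRF1, ETS-family factors and YY1, and the 250 bases before the start of SDHA, SDHAF1, UQCRC1 and ATP5MC1 are shown for that reason, the promoters of ATP5F1D, CYC1 and ATP5MF having no match in the table, from RefSeq on GRCh38.p14, 5′ to 3′ on the strand of the gene. Capitals mark the NRF1 motif (GCGCA, then any base, then GCGC) in SDHA and UQCRC1, the YY1 motif ATGGCGG in SDHAF1 and the CCAAT box in ATP5MC1, on either strand. The windows are SDHA at chr5:218070-218319 on the plus strand, SDHAF1 at chr19:35994938-35995187 on the plus strand, UQCRC1 at chr3:48609647-48609896 on the minus strand and ATP5MC1 at chr17:48892537-48892786 on the plus strand.
SDHA: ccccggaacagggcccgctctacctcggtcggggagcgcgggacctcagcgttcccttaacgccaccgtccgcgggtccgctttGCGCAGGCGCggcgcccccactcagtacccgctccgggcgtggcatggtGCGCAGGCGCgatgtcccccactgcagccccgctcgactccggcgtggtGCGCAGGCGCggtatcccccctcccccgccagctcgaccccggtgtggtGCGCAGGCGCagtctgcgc
SDHAF1: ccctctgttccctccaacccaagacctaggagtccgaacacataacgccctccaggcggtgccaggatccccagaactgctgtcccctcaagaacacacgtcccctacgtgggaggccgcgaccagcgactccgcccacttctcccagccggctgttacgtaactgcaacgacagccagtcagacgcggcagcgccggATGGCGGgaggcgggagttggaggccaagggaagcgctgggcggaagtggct
UQCRC1: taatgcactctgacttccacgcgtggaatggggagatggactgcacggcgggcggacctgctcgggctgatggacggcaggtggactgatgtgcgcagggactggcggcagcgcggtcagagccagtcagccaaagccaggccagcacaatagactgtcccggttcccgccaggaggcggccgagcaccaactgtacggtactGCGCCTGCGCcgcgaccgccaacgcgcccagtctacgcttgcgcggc
ATP5MC1: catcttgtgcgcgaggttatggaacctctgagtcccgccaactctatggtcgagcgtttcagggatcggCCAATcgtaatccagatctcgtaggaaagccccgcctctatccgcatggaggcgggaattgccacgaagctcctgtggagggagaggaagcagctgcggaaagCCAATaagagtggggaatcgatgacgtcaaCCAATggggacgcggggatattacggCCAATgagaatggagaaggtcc
The ETS motif CCGGAAG was in 0 of these 4 windows. The SDHA window held 4 matches to the NRF1 motif and the UQCRC1 window 1, and the ATP5MC1 window held 4 CCAAT boxes. Of the 57 respiratory genes measured, 46 had a promoter in the table. The NRF1 motif was in 12 of these, or 26.1 percent, against 10.8 percent of the promoters of all genes measured and 5.53 percent of all 27305 promoters of the same length. The ETS motif was in 32.6 percent of the 46, against 16.0 and 8.82 percent, and ATGGCGG in 10.9 percent, against 4.06 and 2.83 percent. The CCAAT box was in 39.1 percent, against 34.9 and 33.0 percent. The NRF1 form and the CCAAT box were chosen after the sequences were seen, and a match is a run of letters, not a bound site.

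In complex II the catalytic subunit was lower in all treated samples, while the assembly factors differed among themselves. SDHA, the flavoprotein that oxidises succinate, had log2 signals of 12.03 in untreated cells, 11.40 with dihydroberberine, 11.59 with sunitinib and 11.46 with the combination. Untreated cells were highest and the 3 treated samples lay close together. The differences were -0.63, -0.44 and -0.57, or 1.55-, 1.35- and 1.48-fold lower, and a second probe set gave -0.63, -0.46 and -0.53. The combination was thus 0.50 above the sum of the 2 single differences. With the mean of all SDHA probe sets, which includes 1 under the floor, the differences were -0.37, -0.19 and -0.26, all under 1.3-fold. RNA was taken from whole cultures, so fewer cells with a transcript and less of it per cell cannot be told apart, here and for every gene below.

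SDHAF1, which helps insert the iron-sulfur clusters of complex II, had signals of 9.37, 9.07, 9.11 and 8.63 on the arrays in the same order. The combination was lowest and the single agents lay between. Its differences from untreated were -0.31, -0.26 and -0.74, and the combination was 0.48 below sunitinib and 0.43 below dihydroberberine. SDHAF4, which acts on the flavinated catalytic subunit before it joins the complex, ran the other way with dihydroberberine: 8.40, 9.02, 8.11 and 8.63. Both samples with dihydroberberine were the higher ones. It was 1.53-fold higher with dihydroberberine alone and 1.43-fold higher in the combination than with sunitinib, but its 2 probe sets differ in sign in that second comparison, and the mean of its probe sets gave 0.43 and 0.23 on the log2 scale. SDHAF3, an assembly factor for the iron-sulfur subunit, was 1.31-fold lower with dihydroberberine (9.82 against 9.43; -0.26 after quantile normalization, under 1.3-fold) and -0.07 and -0.25 away with sunitinib and the combination. SDHAF2, which attaches the flavin to SDHA, and the membrane anchors SDHC and SDHD differed from untreated by at most 0.24 in size in any treated sample. Of the 5 SDHC probe sets, all above the floor, the 1 of lowest signal gave -0.19, -0.36 and -0.41.

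In complex III the signal of a core subunit and of cytochrome c1 was lower, most in the combination, and UQCR10 was lower with dihydroberberine. UQCRC1, a core protein on the matrix side, had signals of 12.95, 12.83, 12.64 and 12.42, each lower than the one before in the order untreated, dihydroberberine, sunitinib, combination. The differences were -0.13, -0.32 and -0.54, and a second probe set gave larger ones of -0.31, -0.57 and -0.91. CYC1, the haem protein that hands electrons to cytochrome c, had signals of 12.86, 12.66, 12.56 and 12.39 in the same order, with the combination 1.38-fold below untreated. Its 3 probe sets gave -0.47, -0.47 and -0.40 in the combination.

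The small subunit UQCR10 was lowest with dihydroberberine (13.42, 13.06, 13.36 and 13.19), 0.36 below untreated. UQCRC2, the partner of UQCRC1 in the core, had signals of 12.80, 12.95, 12.76 and 12.84, or 0.15, -0.04 and 0.04 from untreated. Its second probe set gave 0.11, -0.30 and -0.27, so the probe sets differ in sign in the combination. UQCRB, a small subunit next to the quinone site, was 0.14, 0.08 and 0.16 above untreated, but its 2 other probe sets above the floor gave 0.02, -0.03 and -0.03, and -0.01, 0.20 and -0.03. UQCRH and UQCRHL, its retrocopy, may hybridise to each other's probes and are not described singly. UQCR11 differed by at most 0.13 in size, although its plain probe set, read alone, gave -0.40, -0.29 and -0.53. The median over the 9 genes was -0.05 with dihydroberberine, -0.04 with sunitinib and -0.08 with the combination, and after quantile normalization it was 0.01, 0.04 and -0.02, so its sign with either single agent depends on the scaling.

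**Figure D2:**
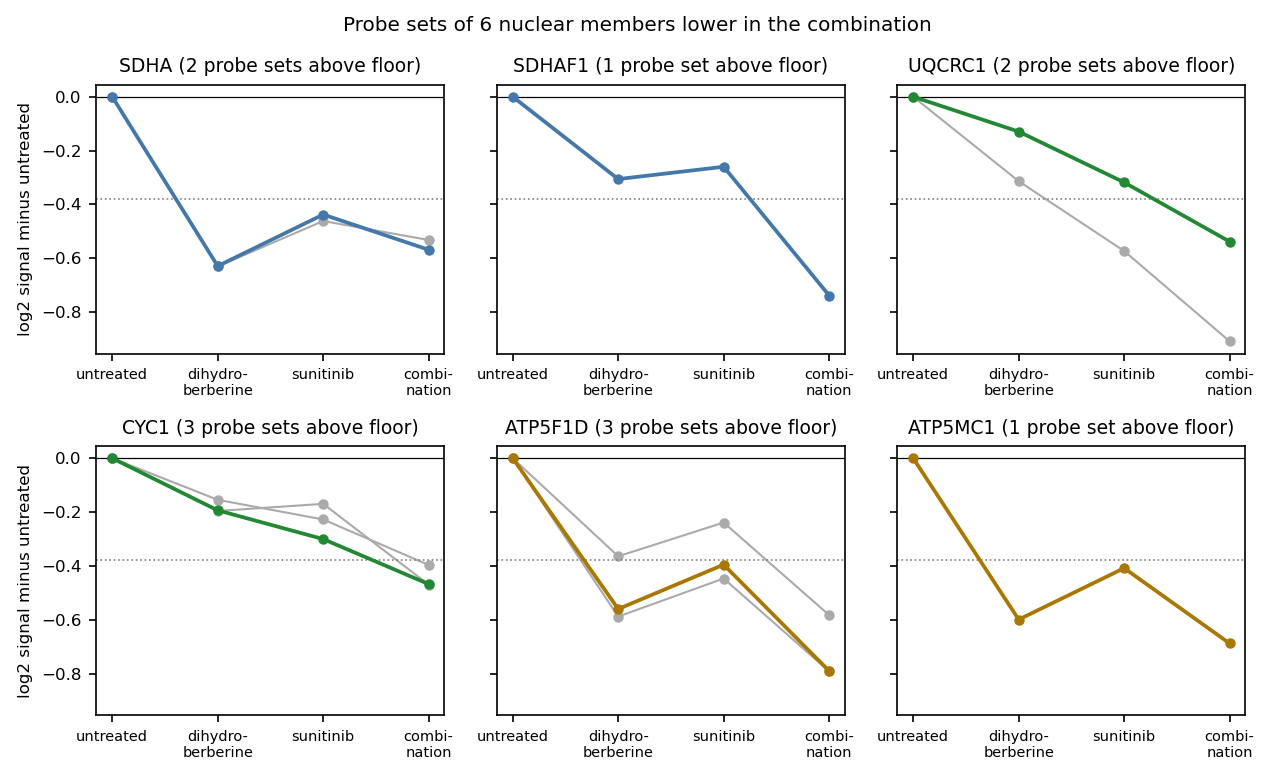
Log2 signal minus untreated for every probe set above the floor of 6 nuclear genes that were lower by at least 1.3-fold in the combination. The coloured line is the probe set of highest mean, grey lines are the other probe sets, points are single arrays and lines only join them; the dotted line marks 1.3-fold. Both UQCRC1 probe sets are lowest in the combination, and both SDHA probe sets are lowest with dihydroberberine.

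In complex IV none of the 10 nuclear structural subunits passed 1.3-fold, and those past it were assembly factors and COX3. Of the 10, 5 were below untreated with dihydroberberine, 9 with sunitinib and 9 with the combination, at medians of -0.0027, -0.07 and -0.09. Of all genes 53, 55.6 and 52.7 percent were below untreated. COX4I1, the subunit known to bind the allosteric regulator ATP, had signals of 13.56, 13.56, 13.45 and 13.47, and COX6A1 of 14.80, 14.81, 14.74 and 14.78. COX7A2 lay at 13.95, 13.95, 13.87 and 13.89. These 3 are the widely expressed isoforms of their subunits, and none differed from untreated by more than 0.11 in size. COX6B1, which faces the intermembrane space, was -0.21, -0.14 and -0.24 from untreated. COX7B was -0.22, -0.09 and -0.15 from untreated, with both probe sets alike in sign, and COX8A was -0.05, -0.02 and -0.20. COX7A2L, which joins complexes III and IV in supercomplexes, was higher in each treated sample, at 12.37, 12.65, 12.54 and 12.56, and its second probe set was also higher by 0.34, 0.15 and 0.24.

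The tissue isoforms were near or under the floor. COX4I2, COX7A1, COX7B2 and COX8C, known from lung or hypoxic cells, muscle and testis, did not reach it on any array. COX6A2, the heart and muscle isoform, lay between 6.68 and 6.77 and COX6B2, the testis isoform, between 6.66 and 6.90. COX6B2 was above the floor on 3 arrays. Both count among the 57, and no direction is given singly for any of the 6.

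Among the assembly factors of complex IV, 3 passed 1.3-fold with dihydroberberine. COX20, a chaperone of the newly made COX2 protein, had signals of 11.22, 10.68, 11.17 and 10.92, lowest with dihydroberberine and next in the combination. It was 1.45-fold lower with dihydroberberine. COX10, the farnesyltransferase that makes haem O, had signals of 8.68, 9.15, 8.69 and 8.66. Dihydroberberine alone was higher, by 1.39-fold, and the combination was 1.40-fold below it. COX18, which inserts COX2 into the membrane, had signals of 8.85, 8.41, 8.83 and 8.59, but its other probe set was 0.23 higher with dihydroberberine and the mean of its probe sets gave 0.02 in place of -0.44. COX11, a copper chaperone, was lowest with sunitinib, at 10.84, 10.91, 10.48 and 10.76, a difference under 1.3-fold. It has 6 probe sets above the floor, which ranged from -0.57 to 0.11 with sunitinib, and 2 of them were lower by more than 1.3-fold. COX14 and COX16 were 0.25 and 0.23 below untreated in the combination.

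COX3, a core subunit encoded in mitochondrial DNA, was lower in both samples with dihydroberberine and not with sunitinib alone. Its signals were 14.58 in untreated cells, 14.21 with dihydroberberine, 14.61 with sunitinib and 14.10 with the combination. Untreated and sunitinib cells were the higher samples, and the combination was 1.42-fold below sunitinib. A plain probe set for COX3 showed a wider gap, at 13.95, 13.14, 13.86 and 12.85. There dihydroberberine was 1.75-fold below untreated, the combination 2.13-fold below untreated and 2.01-fold below sunitinib. ND1 and ND4, 2 complex I subunits also encoded in mitochondrial DNA and chosen after their values were seen, were read for comparison. ND4 was lower in both samples with dihydroberberine (15.02, 14.70, 14.94 and 14.70), and ND1 was lowest in the combination (14.43, 14.46, 14.36 and 14.21). The COX3 probe set of highest mean is of a type whose probes may match other sequences, and a probe set shared by 2 mitochondrial genes was not used.

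**Figure D3:**
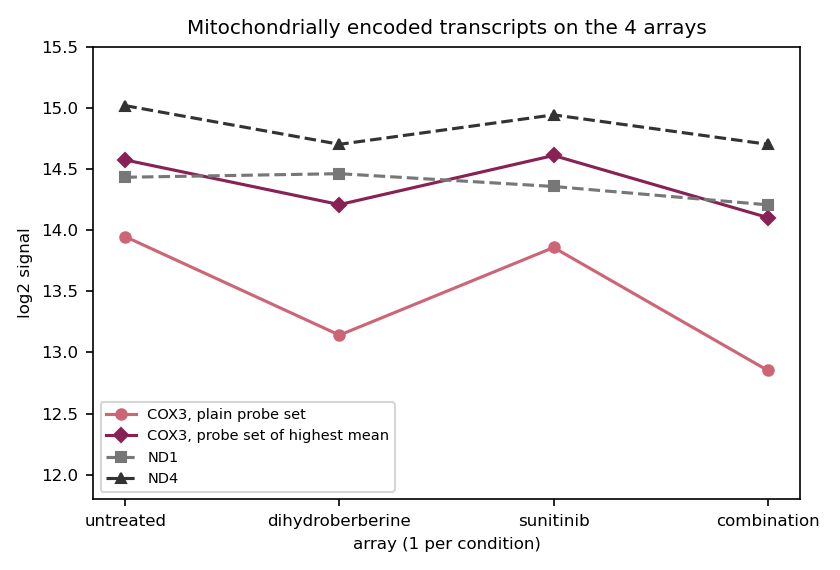
Log2 signal (vertical axis, which does not start at 0) of mitochondrially encoded transcripts on the 4 arrays, 1 per condition; lines only join the arrays. Both COX3 probe sets are lower in the 2 samples with dihydroberberine, down to 12.85 for the plain probe set in the combination, while ND1 stays within 14.21 to 14.46.

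In complex V nearly all genes had a lower signal in treated than in untreated cells. The difference from untreated was negative for 17 of 18 genes with dihydroberberine, 16 with sunitinib and 16 with the combination. Of all genes 53, 55.6 and 52.7 percent were negative, and of genes of similar or higher signal 58.2, 64.5 and 57.6 percent. For the NDUF genes of complex I the shares were 77.3, 84.1 and 86.4 percent. The complex V medians were -0.15, -0.15 and -0.20. After quantile normalization these medians were -0.11, -0.09 and -0.15. With plain probe sets, which leave 4 of the genes, they were 0.10, -0.11 and -0.09. All 5 subunits of the F1 head and central stalk were lower in each treated sample than in untreated cells, by 0.08 to 0.79. The smallest difference was that of ATP5F1C with dihydroberberine, where another of its probe sets was higher by 0.26. The probe sets of ATP5MJ and of ATP5PB also differed in sign in each treated sample. Complex II had medians of -0.17, -0.08 and -0.24, and after quantile normalization -0.12, -0.01 and -0.18. Complex IV had -0.01, -0.05 and -0.10, and after quantile normalization 0.01, 0.00 and -0.03, so that its sign with dihydroberberine depends on the scaling.

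ATP5F1D, the delta subunit of the central stalk, had signals of 12.13, 11.57, 11.74 and 11.34. Each single agent was lower than untreated and the combination lowest. The folds were 1.47, 1.32 and 1.73, and its other probe sets gave -0.36, -0.24 and -0.58, and -0.59, -0.45 and -0.79. ATP5F1A, the alpha subunit of the head, was -0.18, -0.25 and -0.28 from untreated.

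The c ring is built from 1 mature protein that 3 genes encode, and their differences were of unequal size in the probe sets of highest mean. ATP5MC1, read from 1 probe set, had signals of 12.61, 12.01, 12.20 and 11.92, a difference of -0.60, -0.41 and -0.69. All treated samples were lower. ATP5MC3 was -0.30, -0.18 and -0.27 from untreated. Its other probe sets above the floor were also lower, down to -1.03 with dihydroberberine, -0.30 with sunitinib and -0.39 with the combination. ATP5MC2, read from 1 probe set, was -0.02, -0.09 and -0.21 from untreated. In the membrane part ATP5MF was -0.33, -0.22 and -0.38 from untreated, with signals of 13.90, 13.57, 13.67 and 13.52. ATP5IF1, the inhibitor that stops the enzyme from running in reverse, had signals of 13.11, 12.87, 13.09 and 12.87, so that both samples with dihydroberberine were lower and sunitinib alone was not.

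Dihydroberberine can be read in a pair of comparisons that share no array: against untreated cells, and in the combination against sunitinib. The 2 differences had the same sign for 50 of 57 respiratory genes, or 87.7 percent, against 62.1 percent of all genes, with 37 negative in both and 13 positive in both. Across the 57 genes, which share arrays and are not independent, Pearson's r was 0.70 and Spearman's rho 0.72, beside 0.45 and 0.37 across all genes. Most of all genes had a lower signal than the respiratory genes. Genes of similar or higher signal were not read for these shares and correlations, nor for those of sunitinib below. ATP5F1D was lower by at least 1.3-fold in both and SDHAF4 higher in both. In the combination against sunitinib 3 genes were lower and 1 higher by 1.3-fold, where 5.79 percent of all genes were lower and 9.93 percent higher.

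Sunitinib, read likewise, gave 36 of 57 with the same sign, or 63.2 percent, against 58.4 percent of all genes, with r of 0.32 and rho of 0.30 beside 0.30 and 0.27. No respiratory gene passed 1.3-fold in both. In the combination against dihydroberberine 4 genes were lower (COX10, SDHAF1, UQCRC1 and SDHAF4) and 0 higher, where 9.58 percent of all genes were lower and 18.6 percent higher.

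**Figure D4:**
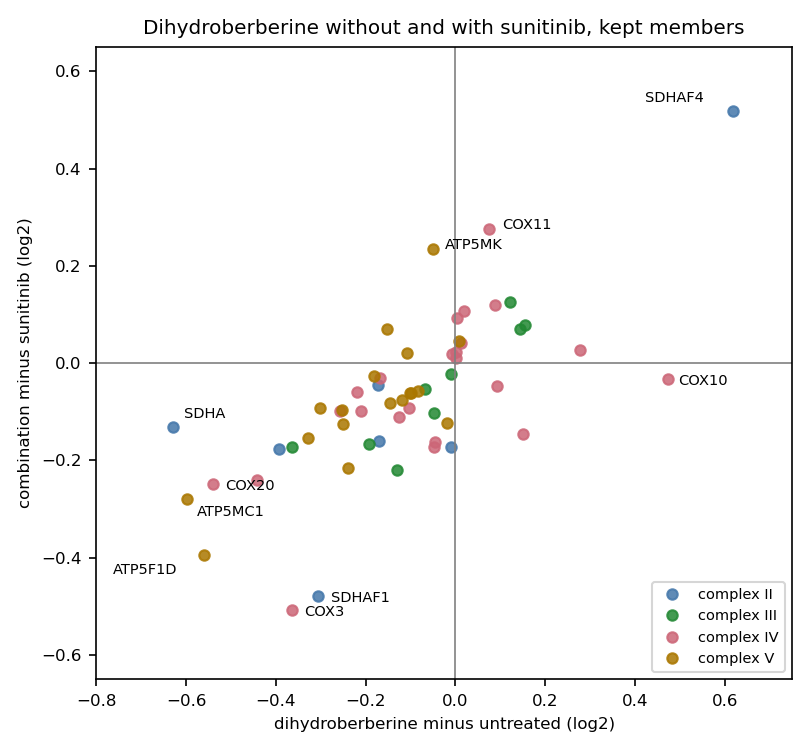
Log2 difference of dihydroberberine from untreated (horizontal axis) against that of the combination from sunitinib (vertical axis) for the 57 respiratory genes measured, coloured by complex; the 2 axes share no array. Of the points, 37 lie at lower left and 13 at upper right, with ATP5F1D, COX3 and SDHAF1 low and SDHAF4 high on both axes.

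Over the 4 samples, untreated cells had the highest signal for 33 of the 57 genes, or 57.9 percent, against 33.0 percent of all genes. The combination had the lowest signal for 24, or 42.1 percent, against 24.1 percent. Dihydroberberine alone was lowest for 16, or 28.1 percent against 31.1 percent, and sunitinib for 13, or 22.8 against 20.0 percent. Untreated cells were lowest for 4, or 7.02 against 24.9 percent. These shares were not read among genes of similar or higher signal. How far 1 probe set can be read was judged from 36 respiratory genes with at least 2 probe sets above the floor. The median SD between probe sets of a gene was 0.06 for dihydroberberine, 0.08 for sunitinib and 0.07 for the combination against untreated. Over all genes with several it was 0.12 in each. All probe sets had 1 sign for 26, 23 and 28 of the 36. Probe sets of a gene are not independent reads, and SDHD has a pair with the same values on all arrays, so the SD may be too small.

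Genes that act with these complexes were read from lists of assembly factors, of electron carriers together with ubiquinone synthesis, and of regulators. The counts of each list stand against the shares of all genes past 1.3-fold, which were 22.4, 11.6 and 16.5 percent lower and 12.8, 6.63 and 15.3 percent higher with dihydroberberine, sunitinib and the combination. Of 8 further assembly factors of complex III, 3 were lower by 1.3-fold with dihydroberberine, 0 with sunitinib and 2 with the combination, while 1 was higher with sunitinib. BCS1L, which inserts the iron-sulfur protein into complex III, was -0.41, -0.14 and -0.49 from untreated. LYRM7, the chaperone of that protein, was -0.55 with dihydroberberine and 0.41 and 0.35 in the other treated samples. Of 20 further assembly factors of complex IV, 2, 0 and 3 were lower and 1, 1 and 2 higher. TMEM177, which acts with COX20 on COX2, was -0.48, -0.27 and -0.63. TIMM21, an import factor that also serves complex IV assembly, was -1.05 with dihydroberberine and 0.07 and -0.04 otherwise. HIGD1A ran the other way with sunitinib and the combination, at -0.26, 0.54 and 0.71, the largest size in the list for those 2 samples. The list for complex V assembly held 6 genes, among them NDUFAF7, a complex I assembly factor that is also counted with the NDUF genes below. Of the 6, TMEM70 was lower with dihydroberberine (-0.55), and none passed 1.3-fold against untreated cells with sunitinib or the combination.

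Of 14 genes of electron carriers and ubiquinone synthesis, 4 were lower with dihydroberberine, 3 with sunitinib and 4 with the combination. These were 28.6, 21.4 and 28.6 percent, and 0 were higher. Among CYCS, ETFA, ETFB and ETFDH, which carry electrons themselves, only ETFB passed 1.3-fold, at -0.40, -0.50 and -0.68. The others of the list serve ubiquinone synthesis. COQ2, an enzyme of ubiquinone synthesis, had signals of 10.08, 9.60, 9.33 and 8.94, lowest in the combination by 2.20-fold. COQ8A, also needed for ubiquinone synthesis, was -0.86, -0.59 and -0.72 from untreated. Of 17 regulators, 7, 1 and 4 were lower, or 41.2, 5.88 and 23.5 percent, and 0, 0 and 2 higher. PPARGC1A, the coactivator of mitochondrial biogenesis, had signals of 8.32, 7.37, 7.71 and 7.18, and NRF1, the factor named for its sites in respiratory promoters, 8.11, 7.48, 7.74 and 7.39. For both, untreated cells were highest and the combination lowest. HCFC1, a coregulator, and TWNK, the mitochondrial DNA helicase, were lowest with dihydroberberine, by -1.19 and -1.13, and -0.14 each with sunitinib. In the combination 6 of the 17 were above untreated, among them NFE2L2 (0.57), GABPB2 (0.47) and TFAM (0.12).

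Complex I, read from 44 NDUF genes, had medians of -0.13, -0.14 and -0.17, with 6, 1 and 7 lower (13.6, 2.27 and 15.9 percent) and 1, 0 and 1 higher by 1.3-fold. The 75 genes of the mitochondrial ribosome had medians of -0.02, -0.11 and -0.16, with 3, 2 and 13 lower (4, 2.67 and 17.3 percent) and 4, 0 and 3 higher. The shares of lower genes lay under those of all genes, except 17.3 against 16.5 percent for the ribosome in the combination.

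**Figure D5:**
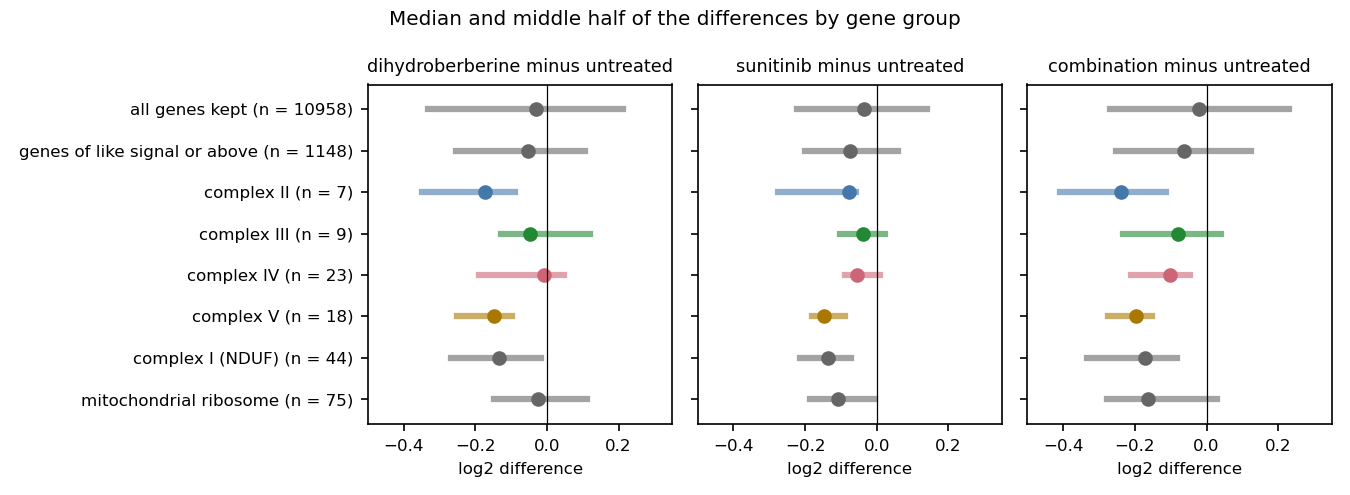
Median log2 difference (point) and the range from the lower to the upper quartile (bar) of the genes of each group, in the 3 comparisons with the untreated array. Bars describe the spread between genes, not an error. The medians of complexes I, II, III and V lie left of the median of all genes in each panel, complex III only just with sunitinib. Against genes of similar or higher signal, complex II is level with sunitinib, and complex III lies to the right with either single agent.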

How the data were processed

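Total RNA of A549 cells was amplified and biotin-labelled with the GeneChip 3′ IVT Express chemistry, per the labels' protocols. The values deposited by the authors are on a log2 scale, 1 per probe set, which was judged from their range and is not stated. The submitters' processing notes list Affymetrix Expression Console; neither its version nor how probes were summarized and arrays normalized was given in the sources used here. The design text names an Agilent array, but the probe set names are those of an Affymetrix array. Of 49293 gene probe sets, 44988 had 1 symbol in the platform annotation, 1832 several and 2473 none, and only the first were used. Values were compared as deposited, in Python 3.11.15 with pandas 2.3.3 and numpy 2.4.6, and the calculation was tested on simulated data. Named genes were every gene of complex II and, in complexes III, IV and V, the 4 with the largest difference in each comparison with untreated cells, plus isoform sets and ATP5IF1. The gene set and all lists were chosen with earlier results of these data known. Alternatives were the mean of all probe sets, plain probe sets (name ending in _at alone), quantile normalization, other floors and a fold of 1.5.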

Additional observations from a re-analysis of the deposited data

How the results depend on the processing

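The medians of the respiratory genes kept their sign in all 5 comparisons under the mean of all probe sets, plain probe sets alone, quantile normalization, no floor, a floor at the 75th percentile or on all arrays, and values raised to the floor. With plain probe sets the dihydroberberine median was -0.04, beside -0.04 over all genes, and with the 75th percentile floor the medians were -0.11 and -0.08 with dihydroberberine and sunitinib, beside -0.10 and -0.08 over all genes. The median deviation from additivity was 0.03 and turned to -0.03 with plain probe sets and -0.0049 after quantile normalization. The median of the combination minus dihydroberberine was -0.17 with plain probe sets, which leave 22 of the genes. Medians of single complexes did not all keep their sign. With plain probe sets, which leave 4 genes in each, the dihydroberberine median turned to 0.03 in complex III and 0.10 in complex V. The complex V median of the combination minus sunitinib turned to 0.02. Plain probe sets gave 3 genes lower by 1.3-fold with dihydroberberine, 0 with sunitinib, and 5 lower and 1 higher with the combination, from fewer genes. Sunitinib gave 0 lower after quantile normalization. At 1.5-fold 2 were lower and 1 higher with dihydroberberine, 0 lower with sunitinib and 3 lower with the combination. The counts with plain probe sets and at 1.5-fold are given without the share of all genes and are not read against it. With the mean of all probe sets 1 was higher in the combination, and COX18 turned to 0.024 with dihydroberberine. Where no cause is named here, the cause was not tested. No paired analysis was possible because each group has 1 array, so the spread between cultures is unknown and no array could be left out within a comparison.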
